A study of Mus musculus with 6 samples.

Results

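The voltage-gated calcium channel genes were described in HL-1 cells, a line derived from mouse atrial cardiomyocytes, after silencing of the long noncoding RNA Malat1. The members were the 10 named pore and auxiliary subunit genes of L-type and T-type channels that have a row in the deposited table of 21269 genes. They were Cacna1c and Cacna1d (L-type pores), Cacna1g and Cacna1h (T-type pores), Cacna2d1 and Cacna2d2 (alpha2delta subunits), and Cacnb1, Cacnb2, Cacnb3, and Cacnb4 (beta subunits). Seeding preceded by 24 hours the transfection with 50 nM of a locked nucleic acid (LNA) gapmer, a short oligonucleotide that directs cutting of the RNA it pairs with, and cells were collected 48 hours later. The control gapmer gave 3 libraries (LNA Control, the control libraries) and the Malat1 gapmer gave 3 (LNA Malat1, the silenced libraries). Both groups were grown in Claycomb medium with serum and norepinephrine, an adrenergic agonist. HL-1 is 1 immortal line in culture, the same line served both groups, and nothing in the labels says that libraries of a group came from separate cultures, so p-values measure only the spread between these libraries, which may be technical.

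Voltage-gated calcium channels open when the membrane depolarizes and let calcium into the cell. In each channel a large pore subunit holds the voltage sensors and the selectivity filter. L-type pores, of which Cacna1c encodes the main cardiac form and Cacna1d a form known from the sinoatrial node and atria, carry the lasting current that triggers contraction. T-type pores open at more negative voltages and close fast, and their current is known from pacemaking and developing heart cells. Beta subunits bind L-type pores inside the cell and raise their number at the membrane, and alpha2delta subunits are mostly extracellular and also raise the current. T-type pores make current without either auxiliary subunit.

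The site that a beta subunit binds separates these pores at the level of sequence, and it is shown because it was matched in both L-type members and in neither T-type member. This alpha interaction domain lies in the linker between the first and second repeats of the pore. It was searched for by its conserved amino acid pattern in the translated transcripts. Its coding stretch of 54 bases was read from mm10 with GENCODE M21 gene models and is given 5′ to 3′ on the coding strand, with capitals for bases that differ from Cacna1c.
Cacna1c, chr6:118734906-118734959, minus strand, exon 9 of 47: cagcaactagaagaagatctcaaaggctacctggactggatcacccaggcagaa
Cacna1d, chr14:30142600-30142653, minus strand, exon 9 of 47: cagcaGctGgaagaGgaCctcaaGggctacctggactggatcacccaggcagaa
The Cacna1d stretch equals that of Cacna1c at 49 of 54 bases. The pattern was matched in 22 of 22 coding transcripts of Cacna1c and 5 of 5 of Cacna1d. It was matched in 0 of 11 coding transcripts of Cacna1g and 0 of 5 of Cacna1h. Among pore genes outside the members, it was matched in 3 of 3 of Cacna1a, 3 of 4 of Cacna1e, and 4 of 4 of Cacna1s. In Cacna1i it was matched in 0 of 4. The pattern is therefore not particular to the L-type members.

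The 250 bases upstream of annotated starts were read from RefSeq (GRCm38.p6) for 8 of the 10 members, with 16 starts in all, and Cacna1g and Cacna1h were not matched. They were searched on both strands for the GC box GGGCGG, the CCAAT box CCAAT, and the GATA motif AGATAA, with overlapping matches counted. A GC box was in 8 of the 16 windows, against 32.7% of 32851 windows of all genes, a CCAAT box in 4, against 33.8%, and the GATA motif in 0, against 9.99%. Stretches of the windows of 2 called members are shown 5′ to 3′ on the gene's strand, with GC boxes on either strand in capitals. They are the 150 bases of the Cacna1c window and the 240 of the Cacnb1 window that lie farthest upstream, without the bases nearest the start.
Cacna1c, second annotated start, chr6:119108596-119108745, minus strand: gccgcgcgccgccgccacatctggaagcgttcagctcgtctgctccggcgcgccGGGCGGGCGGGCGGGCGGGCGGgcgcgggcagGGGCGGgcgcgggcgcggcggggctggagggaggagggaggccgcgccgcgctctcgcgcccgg
Cacnb1, first annotated start, chr11:98022638-98022877, minus strand: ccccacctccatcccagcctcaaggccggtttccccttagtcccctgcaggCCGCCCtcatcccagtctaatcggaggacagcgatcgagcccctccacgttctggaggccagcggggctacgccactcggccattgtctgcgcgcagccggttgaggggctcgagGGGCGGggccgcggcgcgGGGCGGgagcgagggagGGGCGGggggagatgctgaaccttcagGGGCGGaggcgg
The Cacna1c stretch held 6 GC boxes and that of Cacnb1 held 5. The whole windows were 82.8% and 73.2% G or C, against a median of 52.4% over all windows. The windows at the other 2 Cacna1c starts held no GC box and were 51.6% and 50.4% G or C. The window at the second Cacnb1 start also held none and was 56.0% G or C. Which start the cells used was not measured here, and a match is a description of the letters only.

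Values are normalized counts, the reads of a gene divided by 1 factor per library and rounded, and they summed to between 4758777 and 4921406 per library. Malat1 itself was at 5051, 5197, and 4369 in the control libraries against 2833, 2792, and 2732 in the silenced libraries, which is 57.2% of control (log2 fold change -0.80, SE 0.07, adjusted p = 7.5e-06 in limma). The LNA Malat1 libraries 1 and 3 differed by less than sampling noise over the 14522 genes compared (0.949 per gene in a chi-square test of recovered reads, where noise alone gives about 1), although the 1753 genes with at least 1600 reads differed by slightly more than noise (1.115 per gene). They were counted as 1 sample in mean ± SD, so n = 2 there, whereas the main tests kept them as separate libraries. LNA Malat1 libraries 1 and 2 were also near noise over 14308 genes (1.012 per gene). Among genes with at least 1600 reads these libraries were at 1.666 per gene. The LNA Control libraries differed more (1.768 to 4.179 per gene), and replicate 3 stood apart from replicate 1 the most. Of 12 atrial cardiomyocyte markers, 10 had a row, and their summed normalized count was 3969 to 4280 across the control libraries and 3906 to 4031 across the silenced ones. Actc1, Tnnt2, and Ryr2 were at 409 or more in every library, whereas Myh6 and Gja5 were at 0 to 7. Of the other listed markers, Nppa and Sln had no row, Myl7 was at 18 to 32, and Myl4 was at 30 to 49. Ryr2 was the largest part of the sum (2237 to 2706) and was lower in each silenced library. Of 8 atrial markers tested, 6 had positive log2 fold changes and 2 negative, against 8262 and 7388 of the 15650 genes tested. The 6 included Actc1 at 0.00, Nkx2-5 at 0.01, and Myl7 at 0.10. Only Tnnc1 was called, at 30, 26, and 38 and then at 53, 48, and 48. Its rise of 0.66 on the log2 scale (adjusted p = 0.015 in limma) was not a call under quantile normalization (0.46). Tnnt2 passed the limma adjusted p (0.034) but not the fold minimum, also in the higher direction. Summed fibroblast markers were at 5304 to 5911 and 4683 to 4817, endothelial markers at 22 to 31 and 36 to 37, skeletal muscle markers at 66 to 74 and 118 to 128, and neuron markers at 28 to 41 and 61 to 71. These sums cover the markers with a row, 5 of 8 fibroblast, 3 of 7 endothelial, 4 of 10 skeletal muscle, and 6 of 7 neuron markers. Most of the rise in the skeletal muscle sum was Tnnt3, a troponin T, at 21, 20, and 22 and then at 68, 69, and 68, and 1 gene was called in that list and 1 in the neuron list. The part of other cell types in the results was not tested, and in bulk RNA fewer cells of a type and less RNA per cell cannot be told apart.

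All 4 pore genes were lower after Malat1 silencing in every library, whereas the auxiliary subunits did not move together. Cacna1c and Cacna1g were near 50% of their control level and passed the test, Cacna1h was at 69.5%, and the scarce Cacna1d did not pass. Among the auxiliary subunits Cacnb1 passed in the higher direction, Cacnb2 was at 76.4% of control, and Cacna2d2, Cacnb3, and Cacnb4 overlapped between the groups. Calls needed a fold change of 1.5 or more with an adjusted p no higher than 0.05 in limma, fitted on log2(normalized count + 1) over the 15650 genes whose mean was 5 or more. Of the 10 members, 9 could be tested, 2 were called lower and 1 higher. Over all genes tested 10.9% were called, 2.92% lower and 8.0% higher. By the adjusted p alone 4 members were lower and 1 was higher, against 14.0% and 14.3% of all genes. The groups did not overlap for 5 members in the lower direction and 1 in the higher, against 20.8% and 20.5% of all genes. The median log2 fold change of the 9 members was -0.35, against 0.02 for all genes tested, with -0.89 for the 4 pore genes and -0.05 for the 5 auxiliary genes tested.

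**Figure D1:**
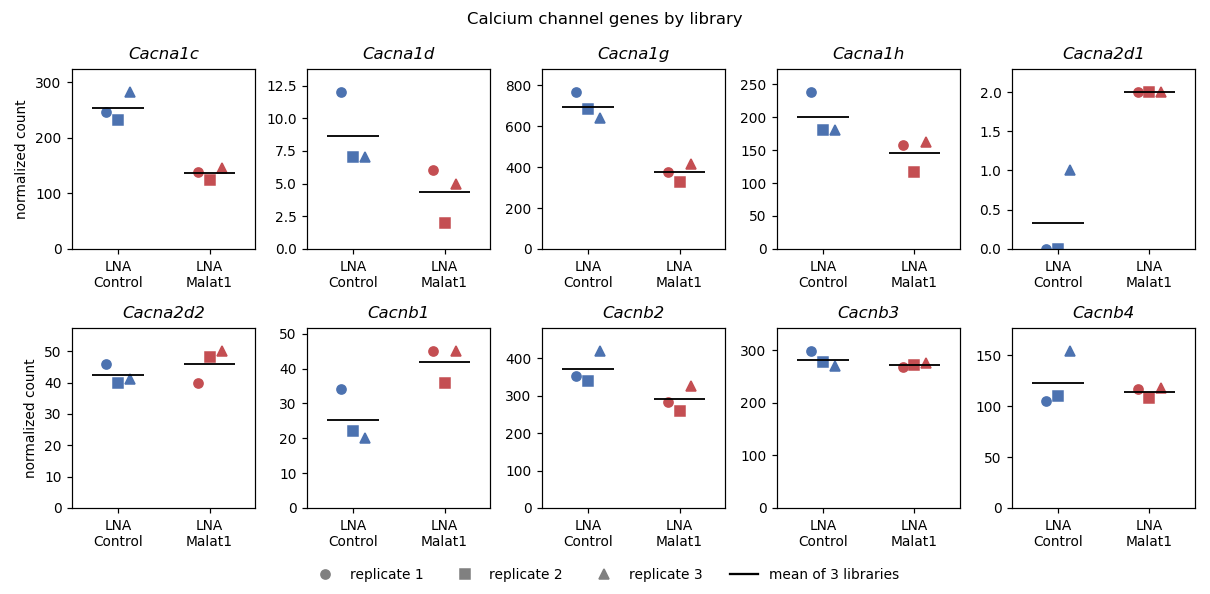
Normalized count of each of the 10 genes in each library, with LNA Control in blue and LNA Malat1 in red, symbols for the replicate number, and a line at the mean of the 3 libraries of a group. The y axis of each panel starts at 0 and has its own scale. All red points of Cacna1c, Cacna1d, Cacna1g, Cacna1h, and Cacnb2 lie below the blue ones, and those of Cacnb1 lie above.

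Cacna1c, the pore of the main cardiac L-type channel, lies on chromosome 6 (mm10, 118587240 to 119196890, minus strand) and spans 609.7 kb. It was at 247, 231, and 282 in the control libraries against 139, 124, and 146 in the silenced libraries. The highest LNA Malat1 library was far below the lowest LNA Control library. The means were 253.3 ± 26.1 (SD, n = 3) and 133.2 ± 13.1 (SD, n = 2), so LNA Malat1 was at 52.6% of control. The log2 fold change was -0.89 (SE 0.09, 95% interval -1.08 to -0.69, limma adjusted p = 1.9e-05). Leaving out any library kept the call.

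Cacna1d, the second L-type pore, lies on chromosome 14 (30039939 to 30491455, minus strand). It was at 12, 7, and 7 in the control libraries against 6, 2, and 5 in the silenced libraries. The groups did not overlap, but the counts were small and the highest LNA Malat1 library was only 1 below the lowest LNA Control libraries. The log2 fold change was -0.91 (SE 0.43, 95% interval -1.85 to 0.03) and was not called, with a limma adjusted p of 0.14. Without LNA Malat1 replicate 2, the lowest library, it was -0.54 (adjusted p = 0.4), and it became a call only under quantile normalization (-1.50, adjusted p = 0.03). Its exons share 589 bases with Chdh on the opposite strand, and reads on several genes were left out of the counts.

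Cacna1g, a T-type pore, lies on chromosome 11 (94408391 to 94474198, minus strand). It was the most abundant pore gene, with 767, 684, and 638 in the control libraries against 377, 329, and 416 in the silenced libraries. The lowest control library lay above the highest silenced library by more than the spread of either group. The means were 696.3 ± 65.4 (SD, n = 3) and 362.8 ± 47.7 (SD, n = 2), which is 52.1% of control. The log2 fold change was -0.90 (SE 0.09, 95% interval -1.08 to -0.71, limma adjusted p = 1.1e-05). Its log2 values had a Pearson correlation of 0.95 with those of Cacna1c over the 6 libraries, a description that the gap between the groups can carry by itself.

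Cacna1h, the other T-type pore, lies on chromosome 17 (25374285 to 25433783, minus strand). It was at 238, 180, and 181 in the control libraries against 158, 117, and 163 in the silenced libraries. The groups did not overlap, and replicate 1 was the high library of LNA Control. Its log2 fold change of -0.45 (SE 0.13, 95% interval -0.74 to -0.16, limma adjusted p = 0.024) was under the fold minimum. Without LNA Malat1 replicate 2, the lowest library, the adjusted p was 0.11 at a log2 fold change of -0.30. The intervals of Cacna1g and Cacna1h overlapped slightly, and the difference between the fold changes was not tested.

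**Figure D2:**
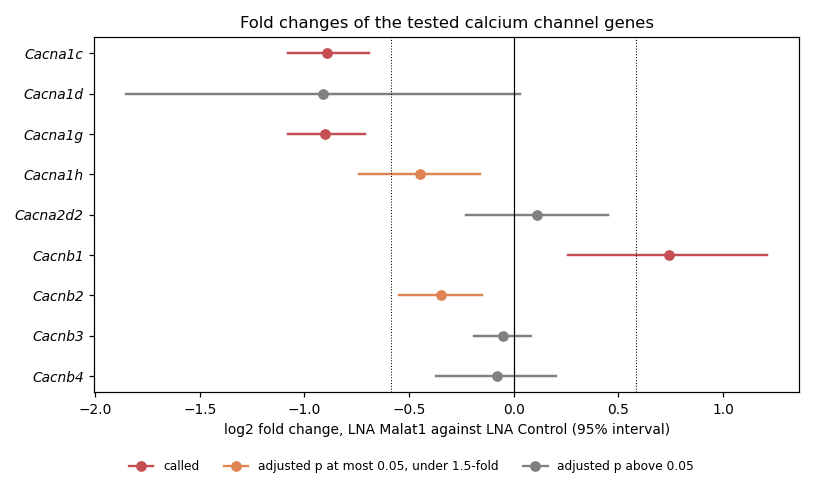
Log2 fold change of LNA Malat1 against LNA Control with its 95% interval from limma for the 9 genes tested. Dotted lines mark the fold minimum of 1.5 in each direction and the solid line no change, and the 4 pore genes all lie to its left while the 5 auxiliary genes lie on both sides.

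Cacnb1, a beta subunit best known from the skeletal muscle channel, lies on chromosome 11 (98001508 to 98023034, minus strand). It was at 34, 22, and 20 in the control libraries against 45, 36, and 45 in the silenced libraries. The groups did not overlap, although replicate 1 of LNA Control was only 2 below the lowest LNA Malat1 library. The means were 25.33 ± 7.57 (SD, n = 3) and 40.5 ± 6.36 (SD, n = 2), which is 160% of control. The log2 fold change was 0.74 (SE 0.22, 95% interval 0.26 to 1.21, limma adjusted p = 0.025). The call was lost when LNA Control replicate 2 was left out (adjusted p = 0.09), as it was with LNA Control replicate 3 (0.06) or either of LNA Malat1 replicates 1 and 3 (0.1 each) left out. Among the 1835 tested genes with a mean of 20 to 50, where Cacnb1 lies, the median log2 fold change was 0.23 and 19.6% were called higher, so a call in that direction was common at this level.

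Cacnb2, the main cardiac beta subunit, lies on chromosome 2 (14603088 to 14987908, plus strand). It was at 352, 339, and 419 in the control libraries against 284, 260, and 326 in the silenced libraries. The groups did not overlap, and replicate 3 was the high library in both. The log2 fold change was -0.35 (SE 0.09, 95% interval -0.55 to -0.15, limma adjusted p = 0.014), which is under the fold minimum. Without LNA Malat1 replicate 1 or 2 the adjusted p was 0.066 or 0.079. Inside the introns of Cacnb2, on its strand, 7 pseudogene or TEC models have rows of their own. Their summed normalized count was 86, 128, and 283 in the control libraries against 206, 175, and 219 in the silenced libraries. That is 24.4%, 37.8%, and 67.5% of Cacnb2 in the LNA Control libraries and 72.5%, 67.3%, and 67.2% in the LNA Malat1 libraries. LNA Control replicate 3 sat with the LNA Malat1 libraries in this ratio, not with the other LNA Control libraries. The same placing held for all 1489 TEC models, a GENCODE class that awaits experiment, at 0.549%, 0.625%, and 0.82% of the total in the control libraries against 0.804%, 0.797%, and 0.877% in the silenced libraries. The part of reads from introns in the Cacnb2 result was not tested. Its exons share 618 bases with Gm10849 on the opposite strand. Without LNA Control replicate 3 its log2 fold change was -0.26 (adjusted p = 0.042).

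Cacnb3, a beta subunit found in many tissues, lies on chromosome 15 (98630840 to 98644529, plus strand). It was at 298, 278, and 269 in the control libraries against 267, 271, and 275 in the silenced libraries. The groups overlapped, and the log2 fold change was -0.05 (SE 0.06, 95% interval -0.19 to 0.08, limma adjusted p = 0.55). This was the narrowest interval among the members and lay within a 1.5-fold change in either direction.

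Cacnb4, a beta subunit known mainly from brain, lies on chromosome 2 (52428320 to 52676831, minus strand). It was at 105, 110, and 154 in the control libraries against 117, 108, and 118 in the silenced libraries. Replicate 3 of LNA Control was the high library, and the other LNA Control libraries lay close to the LNA Malat1 libraries. The log2 fold change was -0.08 (SE 0.13, 95% interval -0.37 to 0.20, limma adjusted p = 0.67), and it was 0.09 without that library. Its exons share 1433 bases with A430018G15Rik on the opposite strand.

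Cacna2d2, an alpha2delta subunit, lies on chromosome 9 (107399612 to 107529343, plus strand). It was at 46, 40, and 41 in the control libraries against 40, 48, and 50 in the silenced libraries. The groups overlapped, with a log2 fold change of 0.11 (SE 0.16, 95% interval -0.23 to 0.45, limma adjusted p = 0.63). Cacna2d1, the alpha2delta subunit usually described in cardiac channels, lies on chromosome 5 (15934691 to 16374511, plus strand) and was close to 0. The control libraries list it at 0, 0, and 1 and each silenced library at 2, with a mean of 1.167 that put it below the filter, and a fold change is not given at this depth.

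Levels of different genes were compared as normalized count per kb of exonic length, since longer transcripts give more fragments. Cacnb3 (70.2 ± 3.7) and Cacna1g (68.7 ± 6.4) led in LNA Control and did not differ beyond their spread (SD, n = 3). Cacnb2 (28.0 ± 3.2), Cacna1h (20.5 ± 3.4), Cacnb4 (13.7 ± 3.0), and Cacna1c (12.0 ± 1.2) followed. Cacnb4 and Cacna1c overlapped, as did Cacnb1 (5.59 ± 1.7) and Cacna2d2 (5.33 ± 0.40). Cacna1d (0.687 ± 0.23) and Cacna2d1 (0.0268 ± 0.047) stood last. In LNA Malat1, Cacnb3 was at 67.6 and Cacna1g at 35.8, and each Cacna1g library was below each Cacnb3 library. Cacna1c (6.29 ± 0.62, SD, n = 2) and Cacnb1 (8.94 ± 1.4) changed places in the order, and in neither group did the libraries of these 2 genes overlap. The exonic length joins all annotated transcripts, so these levels depend on which transcripts the cells used.

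**Figure D3:**
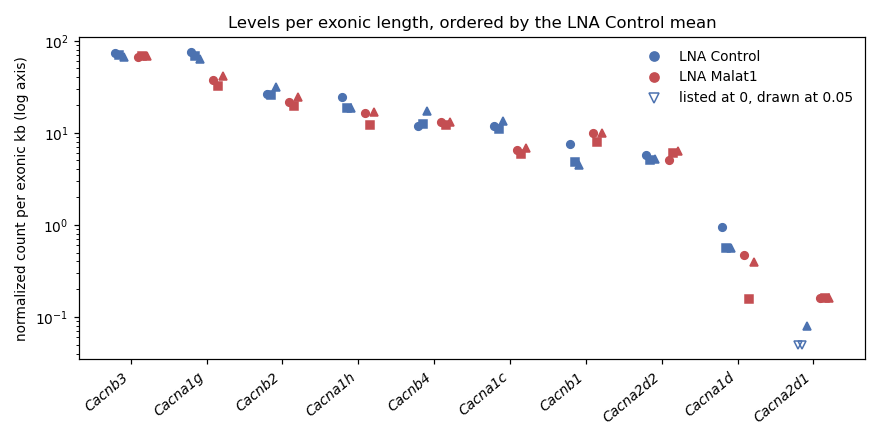
Normalized count per exonic kb in each library on a log axis, with genes ordered by the LNA Control mean, LNA Control in blue and LNA Malat1 in red. The T-type gene Cacna1g is level with Cacnb3 in LNA Control and below it in LNA Malat1, and libraries in which Cacna2d1 is listed at 0 are drawn as open triangles at 0.05.

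Summed per kb, the 4 pore genes were at 113, 97.4, and 95.3 in the control libraries against 60.4, 50.4, and 65.0 in the silenced libraries, which is 55.6% of control. The L-type pores were at 52.1% and the T-type pores at 56.1% of control in this sum. The 4 beta genes were at 94.0% of control, with 120, 112, and 120 in the control libraries against 111, 107, and 116 in the silenced libraries. The pore sum was below the beta sum in all 6 libraries. Most of the pore sum was T-type, at means of 89.1 in LNA Control and 50.0 in LNA Malat1. The L-type pores were at 12.6 and 6.59, against 118 and 110 for the beta genes.

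The make-up of the pore pool was then described as shares of its summed level per kb. Cacna1c made up 10.3%, 11.2%, and 14.0% in the control libraries against 10.9%, 11.6%, and 10.6% in the silenced libraries. The groups overlapped, and the difference of -0.816 points gave p = 0.7 in an exact two-sided permutation test over 3 against 3 libraries, where the smallest possible p is 0.1. Without LNA Control replicate 3, the high library, the difference was 0.247 points. Cacna1g was the largest share, at 67.2%, 69.3%, and 66.0% in the control libraries against 61.6%, 64.3%, and 63.1% in the silenced libraries, and Cacna1h was at 21.6%, 18.9%, and 19.4% and then at 26.8%, 23.8%, and 25.7%. Neither pair of groups overlapped, with differences of -4.49 points for Cacna1g and 5.4 points for Cacna1h (exact two-sided permutation p = 0.1 for each, the smallest possible). Cacna1h took the larger share of a pore sum in which its own level was also lower.

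**Figure D4:**
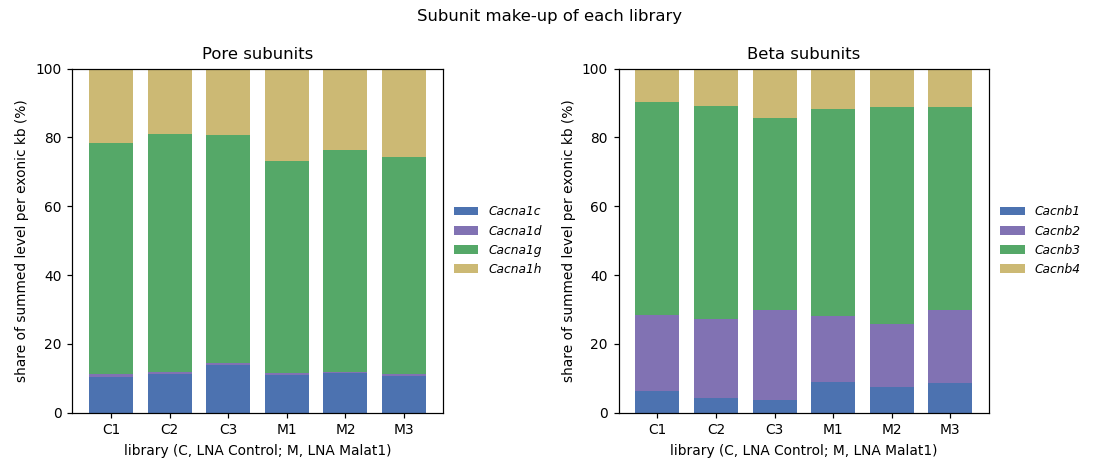
Share of each gene in the summed level per exonic kb of the 4 pore genes (left) and of the 4 beta genes (right), with 1 bar per library. Cacna1g fills most of every pore bar and Cacnb3 most of every beta bar, and the Cacna1h and Cacnb1 shares are larger in each LNA Malat1 bar than in any LNA Control bar.

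Among the beta genes Cacnb2 made up 22.1%, 22.9%, and 26.3% in the control libraries against 19.3%, 18.3%, and 21.2% in the silenced libraries. The difference was -4.16 points (exact two-sided permutation p = 0.1, the smallest possible). Cacnb1 was at 6.25%, 4.33%, and 3.67% and then at 8.95%, 7.41%, and 8.54%, without overlap, whereas Cacnb3 was the main beta gene in both groups at means of 59.8% and 61.2%, with overlap. Cacna2d2 made up at least 96.9% of the alpha2delta level in every library. Cacna2d1 was at 0%, 0%, and 1.54% in the control libraries against 3.1%, 2.6%, and 2.5% in the silenced libraries, a difference of 2.22 points (exact two-sided permutation p = 0.1, the smallest possible) that rests on at most 2 normalized counts per library.

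Of 16 other pore, alpha2delta, and gamma subunit genes, 8 had a row and 5 could be tested, and 1 was called. Cacng6, a gamma subunit of calcium channels, was at 8, 5, and 6 in the control libraries against 18, 15, and 19 in the silenced libraries. It was higher in every LNA Malat1 library, and its log2 fold change was 1.34 (SE 0.30, with a limma adjusted p of 0.0058). Among the 1562 tested genes with a mean of 10 to 20, where Cacng6 lies, 18.5% were called higher. Cacna1a, the P/Q-type pore known from neurons, was at 217, 192, and 180 and then at 170, 162, and 148. The groups did not overlap, and the log2 fold change of -0.29 (limma adjusted p = 0.026, SE 0.09) was under the fold minimum. Cacna1s, the skeletal muscle L-type pore, was at 2, 1, and 2 and then at 6, 3, and 5, below the filter.

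Of 16 partner genes of the L-type channel (calmodulins, STAC adaptors, RGK GTPases, and anchoring proteins), 14 had a row, 11 could be tested, and 0 were called, in limma or with voom weights on recovered reads. At an unadjusted p under 0.05, 4 were lower and 2 higher, against 19.2% and 20.7% of all genes tested. At an adjusted p of at most 0.05, 2 of the 11 were lower, against 14.0% of all genes. Rrad, a GTPase that binds beta subunits and holds back the L-type current, was at 166, 167, and 173 in the control libraries against 119, 128, and 136 in the silenced libraries. Its groups did not overlap, and the log2 fold change was -0.40 (limma adjusted p = 0.0031, SE 0.08). Sri, the calcium-binding protein sorcin, was at 457, 458, and 475 and then at 395, 403, and 400. Its log2 fold change of -0.21 (limma adjusted p = 0.0085, SE 0.05) was also under the fold minimum. The median log2 fold change was -0.06 over the 11 partner genes tested.

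Genes with a mean of at least 50 were ranked by the Pearson correlation of their log2 values with those of Cacna1c over the 6 libraries, as a description of likeness. Of 10489 genes compared, 495 had a correlation above 0.95. The libraries fall into 2 groups, so a gene lower in LNA Malat1 can score high from the gap between the groups alone. The spread within the groups also enters the score. The closest were Dtnb (0.996), 4933431E20Rik (0.995), Ndufaf5 (0.995), Dock1 (0.994), and Ezh1 (0.993). Dtnb was at 458, 440, and 474 in the control libraries against 351, 326, and 364 in the silenced libraries, with replicate 3 the highest and replicate 2 the lowest in both groups, as for Cacna1c. Of these 5 genes 4933431E20Rik was the one that was called (log2 fold change -0.75, limma adjusted p = 7.0e-05, SE 0.09), and the others were lower by less than 1.5-fold. Cacna1g ranked 489 in this order, Cacnb2 1043 (0.91), and Cacna1h 2386 (0.79), while Cacnb3 (0.44) and Cacnb4 (0.41) were far below.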

How the data were processed

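The members and the gene lists were chosen with earlier results of these data known. Total RNA was sequenced with a stranded kit. By the study's methods and processing notes, the authors used Trimmomatic 0.39 for trimming, STAR 2.7.7a for alignment to mm10, featureCounts 1.6.5 for exonic reads per gene, without reads on more than 1 gene or region, and DESeq2 1.30.0. Whether counting used strand is not given in the sources used here. The deposited values are a score, namely counts divided by 1 factor per library and rounded. DESeq2 was not run on them here.

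Groups and replicate numbers came from the labels. In R 4.3.3, limma 3.58.1 was fitted to log2(normalized count + 1) of genes with a mean of at least 5, with lmFit and trended eBayes, two-sided, with Benjamini-Hochberg adjustment over all genes tested. A log2 fold change understates the change of low genes on this scale. The test was tried on simulated data, where it recovered 196 of 200 genes changed 2-fold and called 3 unchanged genes. All simulated libraries had 1 common spread. The simulation therefore does not cover smaller changes, the lowest counts, or the unequal spread of these groups. The factors recovered from rounding gaps gave 4512253 to 5593215 reads per library, which cover counting error only. Positions are those of the deposited table, and exonic lengths are from GENCODE M21. Genes were named by rule: Malat1, the members, called genes of the other lists and uncalled ones where a count was 5 or fewer, and the 5 genes most like Cacna1c. Cacna1s was named after its values were seen. Alternatives were another scaling, pseudocount, filter, or fold minimum, the replicate block, voom weights, merged replicates, and each library left out. Columns of the authors' own comparisons (fold changes and p-values) were not used.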

Additional observations from a re-analysis of the deposited data

How the results depend on the processing

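Cacna1c (log2 fold change -0.95 to -0.81) and Cacna1g (-0.98 to -0.81) were called lower under every alternative that kept the fold minimum of 1.5. The count of called members was 3, became 5 with no fold minimum (Cacna1h and Cacnb2 added) and 0 at a fold of at least 2, and was 2 to 3 when each library was left out. Cacnb1 was lost in 6 of 15 alternatives, among them quantile normalization (0.50, adjusted p = 0.12) and LNA Malat1 replicates 1 and 3 as 1 sample (0.68, adjusted p = 0.098). The direction reversed for Cacna2d2 under quantile normalization (-0.06), for Cacnb4 without LNA Control replicate 3 (range -0.19 to 0.09 with each library left out), and for the Cacna1c share of the pore level, which was -1.56 to 0.247 points with each library left out. The causes were not tested. The Cacnb2 share was -4.97 to -2.89 points and the Cacna2d1 share 1.96 to 2.73 points in the same refits. With LNA Malat1 replicates 1 and 3 as 1 sample, these shares differed by -4.48 and 2.19 points. The exact two-sided permutation p was 0.2 for each, the smallest possible there. The scalings moved the median log2 fold change of all genes from 0.018 to between -0.004 and 0.054.

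With the replicate block, 3 members were called, the same 3 as without it, and no other call changed. Same-numbered libraries deviated together with correlations of 0.086, 0.182, and 0.083 over 10490 genes. Differently numbered libraries were at -0.189 to 0.046, below each of these. The labels do not say that the numbers pair the libraries, so the main tests did not pair them. With the block, the limma adjusted p was lower for Cacna1h (0.0053 against 0.024) and Cacnb2 (0.001 against 0.014). For the shares, the paired sign-flip p with the replicate block was 1.0 for Cacna1c, 0.25 for Cacnb2, and 0.25 for Cacna2d1, where 0.25 is the smallest possible. The small counts of Cacna1d left an interval wider than a 1.5-fold change, and those of Cacna2d1 left it untested.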

Other observations

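Of the members tested, Cacna1c, Cacna1d, and Cacnb2 each span at least 300 kb. Over all tested genes of that span, 134 of 283 were lower and 22 higher at a limma adjusted p of at most 0.05. Of the other 15367 tested genes, 2061 were lower and 2209 higher. The median log2 fold change was -0.23 for the genes of that span and 0.02 for the others. Cacna1g and Cacna1h, below that span, cover 65.8 and 59.5 kb and had log2 fold changes of -0.90 and -0.45. Cacnb4, at 248.5 kb and so also below that span, overlapped between the groups. The part of gene length in these results was not tested.

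Among the lists of markers of other cell types, 1 of 3 tested skeletal muscle markers and 1 of 3 tested neuron markers were called, both higher. Tnnt3, a fast skeletal troponin T, changed by 1.66 on the log2 scale (SE 0.16, with a limma adjusted p of 1.0e-05), whereas Acta1 was at -0.21 and Tnni2 at 0.19, neither past the test. Tubb3, a tubulin of neurons, was at 10, 8, and 8 in the control libraries against 27, 28, and 25 in the silenced libraries (1.52, limma adjusted p = 0.00066, SE 0.25), whereas Map2 was at 0.33 and Gap43 at 0.04, neither past the test. Below the filter, Snap25 (0, 0, 0 then 3, 1, 3), Syt1 (0, 0, 1 then 2, 3, 4), and Rbfox3 (0, 0, 1 then 9, 4, 4) were higher in each silenced library. Such a rise was not particular to neuron markers. Over all genes, 1981, 2031, and 1256 were listed at 0 in the control libraries against 867, 924, and 757 in the silenced libraries. The share of all genes below the filter that were higher in each silenced library was not counted. Of tested genes with a mean of 10 to 20, where Tubb3 lies, 18.5% were called higher. With a mean of 20 to 50, where Tnnt3 and Tnnc1 lie, 19.6% were. Of 8 fibroblast markers, 5 had a row. Dcn, Lum, and Thy1 had none, and Col1a2 was at 0 or 1 in every library. The 4 tested all had negative log2 fold changes, against 7388 of the 15650 genes tested, with a median of -0.28. Of the 4 markers, Col3a1, a fibrillar collagen, passed the adjusted p without the fold minimum (-0.33, limma adjusted p = 0.0014, 79.8% of control), as Cacna1h and Cacnb2 did.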
